A study of Rattus norvegicus with 3 samples.

Results

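The genes Dmd (ENSRNOG00000046366), encoding dystrophin, and Utrn (ENSRNOG00000011058), encoding its paralog utrophin, were followed through single-nucleus RNA sequencing of the rat heart. They are 2 of the 22250 genes in the deposited tables, and both were taken by name and not by any measured value. The heart apex, with part of the septum and of both ventricles, came from rats aged 12 months that were wild-type (WT), BMD or DMD, and sorted nuclei of each genotype gave 1 library. BMD rats (line R-BMDdel45-47) carry an in-frame deletion of exons 45 to 47 of Dmd made with CRISPR/Cas9 in Sprague Dawley rats, and DMD rats (line R-DMDdel52) carry a deletion of exon 52. WT littermates carry neither deletion. Both deletions are in every cell of the animal, so no cell class of a mutant library served as its own control.

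Dystrophin lies under the membrane of striated muscle fibers, where it links actin to a transmembrane complex of dystroglycan and sarcoglycans and, through it, to laminin outside the cell. An in-frame deletion as in Becker dystrophy leaves a shortened protein, whereas a frameshift as in Duchenne dystrophy stops translation. Dmd has several start sites that are used in different tissues and that give full-length or shorter forms. Utrophin is similar in domain structure, is found in vessels and many other tissues, and in adult muscle is concentrated at synapses. It is widely studied because it can stand in for dystrophin when its level is raised.

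The bases before the annotated starts are shown because a count per gene adds up transcripts from all starts of Dmd and because Dmd and Utrn were highest in different cell classes below. Each window holds the 250 bases before a start, in the RefSeq annotation of build GRCr8, written 5′ to 3′ on the strand of the gene. The build of the counts named in the processing notes is rn6, and no position of the counts was used. Capitals mark matches on either strand to 5 motifs. These were the CArG box bound by serum response factor, the E-box with the letters CANNTG that is bound by myogenic and other factors, the GC box with the letters GGGCGG that is bound by Sp factors, the TATA box with the letters TATAAA near some start sites, and the letters TTCCGG bound by ETS factors. No match overlapped another. A start of Dmd whose window overlaps the downstream one is not printed.

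Dmd, upstream start, chrX:51205836-51206085, plus strand: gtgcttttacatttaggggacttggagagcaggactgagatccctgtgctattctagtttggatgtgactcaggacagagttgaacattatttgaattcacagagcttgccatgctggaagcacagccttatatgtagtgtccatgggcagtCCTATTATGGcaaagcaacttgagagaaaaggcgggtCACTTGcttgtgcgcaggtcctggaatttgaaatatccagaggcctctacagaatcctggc

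Dmd, downstream start, chrX:53278763-53279012, plus strand: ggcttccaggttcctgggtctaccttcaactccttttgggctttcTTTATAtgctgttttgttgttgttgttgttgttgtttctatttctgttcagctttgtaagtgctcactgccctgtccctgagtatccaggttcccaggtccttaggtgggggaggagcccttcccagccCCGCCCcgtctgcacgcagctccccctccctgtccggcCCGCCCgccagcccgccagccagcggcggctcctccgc

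Utrn, chr1:9044488-9044737, minus strand: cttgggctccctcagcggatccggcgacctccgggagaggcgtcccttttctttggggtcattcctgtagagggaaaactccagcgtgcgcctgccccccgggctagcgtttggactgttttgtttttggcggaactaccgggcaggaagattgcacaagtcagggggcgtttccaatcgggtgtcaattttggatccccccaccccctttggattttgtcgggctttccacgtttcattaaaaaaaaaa

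The upstream window of Dmd held 1 CArG box, found in 1.5% of 33469 windows of this length, and 1 E-box, found in 65.5%. The downstream window of Dmd held 2 GC boxes, found in 30.5% of windows, and 1 TATAAA match, found in 12.9%. Its GC content was 59.6%, against 46.8% in the upstream window and 55.2% in that of Utrn. The Utrn window matched none of these letters, and TTCCGG was present in 12.6% of all windows. These matches describe the letters and show no binding. The deposited counts are per gene, so the level from each start was not measured here.

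The 3 libraries held between 19215994 and 21609238 unique molecular identifiers (UMIs, each 1 captured RNA molecule). As nuclei, the barcodes with the most UMIs were kept up to the numbers in the study, which left nuclei with a median of 1212.5 (WT), 1486.5 (BMD) and 1229 (DMD) UMIs. Between 12 and 20 barcodes of nuclei were shared by each pair of libraries. Clusters were named from marker genes, and 3 clusters stayed unnamed, of 526 and 439 nuclei that were mostly predicted doublets and of 305 nuclei led by mitochondrial genes. Summed Y-linked genes had 140 to 154 CPM (the UMIs of a gene per 1000000 UMIs) in the nuclei of each library, which bears on Dmd as an X-linked gene. Each genotype is 1 library, so genotypes could not be tested against each other, animals and libraries cannot be told apart from genotype, and all intervals are 95% intervals for counting error only.

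Dmd was first examined as the targeted gene. Over all nuclei it had 131126 UMIs (WT), 158461 (BMD) and 96051 (DMD), or 7641 CPM, 10584 CPM and 6977 CPM. Dmd transcripts were therefore plentiful in every library, and the gene count does not check the labels, since it cannot see a deletion of a few exons. Of the Dmd UMIs of nuclei, cardiomyocyte-like nuclei held 79.8% (WT), 86.7% (BMD) and 78.6% (DMD). Cardiomyocyte-like nuclei were 20.4%, 22.5% and 13.5% of all nuclei. The unnamed clusters held a further 11.8%, 6.2% and 9.98% of the Dmd UMIs. Most of these were in the unnamed cluster of 526 nuclei, mostly predicted doublets, with 15262, 9591 and 8976 Dmd UMIs. The rest of the Dmd UMIs lay in the other named classes. In a sum over all nuclei, fewer cells of a type and less RNA per cell cannot be told apart, and the values by class are given for that reason.

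In cardiomyocyte-like nuclei, Dmd was more abundant in both mutant libraries than in WT, and Utrn was less abundant. Dmd reached 16476 CPM in the WT library (interval 16377 to 16576, 2032 nuclei), 20532 CPM in the BMD library (20423 to 20640, 1532 nuclei) and 19456 CPM in the DMD library (19318 to 19596, 1065 nuclei). None of the 3 intervals met another. The log2 ratio over WT came to 0.32 for BMD (interval 0.31 to 0.33) and 0.24 for DMD (0.23 to 0.25). Between the mutants, the DMD level was 0.948 times that of BMD.

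Utrn had 993 CPM in cardiomyocyte-like nuclei of WT (interval 969 to 1018, 6308 UMIs), 798 CPM for BMD (777 to 820, 5339 UMIs) and 913 CPM for DMD (883 to 944, 3541 UMIs). BMD was the lowest library and DMD lay between BMD and WT, again with no interval meeting another. The log2 ratio over WT came to -0.32 for BMD (interval -0.37 to -0.26) and -0.12 for DMD (-0.18 to -0.06). In neither mutant library was Utrn above WT in these nuclei.

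The marker genes of cardiomyocytes moved in the same direction as Dmd. All 9 markers present in the files were detected in the cardiomyocyte-like nuclei of each library, and their summed level was 15594 CPM (WT), 17999 CPM (BMD) and 18239 CPM (DMD). The markers rose unevenly in BMD. Ldb3 was nearly level at 2880 CPM in WT and 2888 CPM in BMD, whereas Myl3 was at 687 and 1137 CPM. A scale per marker UMI therefore depends on which markers are summed. Per marker UMI, Dmd had 1.06 UMIs (WT), 1.14 (BMD) and 1.07 (DMD). On that scale the log2 ratio over WT came to 0.11 for BMD (interval 0.094 to 0.13) and 0.014 for DMD (-0.0056 to 0.033), so the DMD excess over WT was not detectable. For Utrn the log2 ratio per marker UMI was -0.52 in BMD and -0.35 in DMD. Summed fibroblast markers in these nuclei ranged from 146 to 365 CPM, endothelial markers from 116 to 204 CPM and macrophage markers from 12.3 to 29.1 CPM, in each case with every marker in the files detected and with DMD highest. The part of these other cells in the Dmd and Utrn ratios was not tested.

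**Figure D1:**
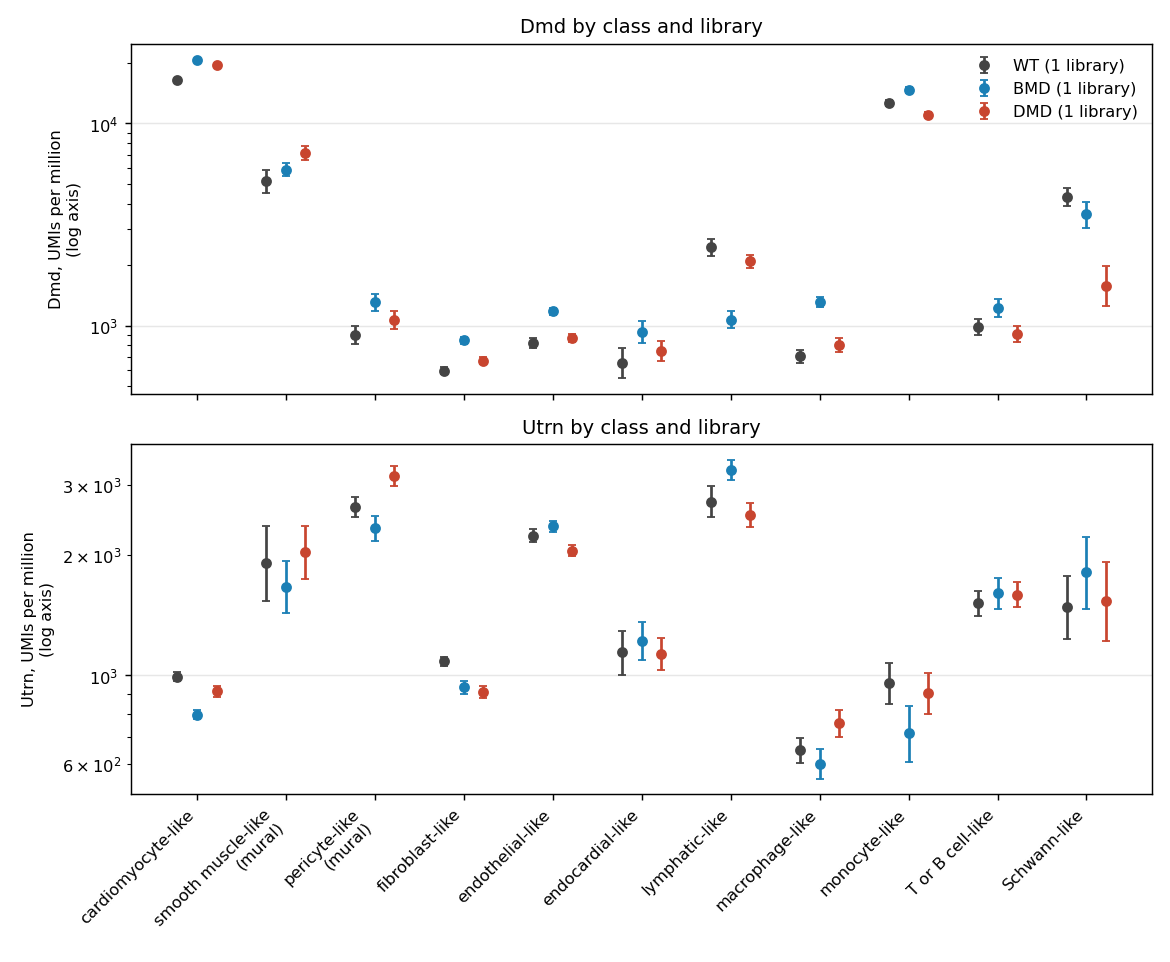
Level of Dmd (top) and Utrn (bottom) in CPM on a log axis, by class and library. Points are the sum over the nuclei of 1 library and bars are exact 95% Poisson intervals for counting error. Dmd is highest in cardiomyocyte-like nuclei, from 16476 to 20532 CPM, and Utrn is higher in pericyte-like, endothelial-like and lymphatic-like nuclei than in cardiomyocyte-like ones in each library.

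The same picture was examined nucleus by nucleus, after 500 UMIs were drawn from each nucleus so that depth was equal. The share of cardiomyocyte-like nuclei with at least 1 Dmd UMI was then 98.6% (WT), 97.9% (BMD) and 97.9% (DMD), and without drawing it was 99.7%, 99.5% and 99.2%. The median was 8 Dmd UMIs in WT and 9 in both BMD and DMD, with quartiles of 5 and 10, 6 and 13, and 6 and 12. Only 29 of 2032, 32 of 1532 and 22 of 1065 nuclei had no Dmd UMI in the draw. The median and upper quartile thus lay higher in the mutant libraries, while the share of nuclei without Dmd was 2.09% and 2.07% in them and 1.43% in WT. The variance of Dmd UMIs was 2.38, 2.68 and 2.5 times the mean in WT, BMD and DMD, above the 1 that counting alone gives.

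**Figure D2:**
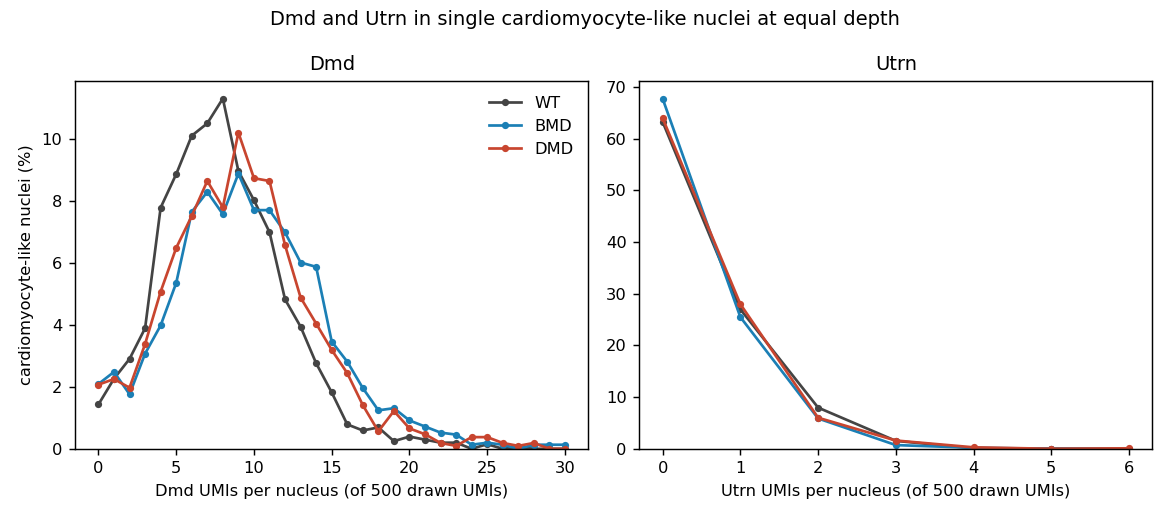
Share of cardiomyocyte-like nuclei (%) by number of Dmd UMIs (left) and Utrn UMIs (right) among 500 UMIs drawn per nucleus, 1 line per library. The Dmd curves of BMD and DMD peak at 9 UMIs, to the right of the WT peak at 8, and Utrn is at 0 in 63.3% to 67.8% of nuclei. Dmd counts above 30 UMIs are not drawn.

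Utrn was sparse at this depth. It was present in 36.7% of drawn WT nuclei (interval 34.6 to 38.8), in 32.2% of BMD nuclei (29.9 to 34.7) and in 36% of DMD nuclei (33.1 to 38.9). The BMD share was below WT, and the intervals met by a narrow margin. To ask whether Utrn moved with Dmd from nucleus to nucleus, cardiomyocyte-like nuclei were divided at the median Dmd count of their library. Utrn was 979 CPM at or above the median and 980 CPM below it in WT, 801 and 844 CPM in BMD, and 977 and 912 CPM in DMD. Within each library the intervals overlapped widely, and Spearman's rho between both genes was -0.004 (WT), 0.0012 (BMD) and 0.018 (DMD) over nuclei that share a library. A difference in Utrn between nuclei with more or less Dmd was not detectable at this depth.

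Cardiomyocyte-like nuclei were also divided by Nppa, the gene of atrial natriuretic peptide and a marker of cardiac load. At least 1 Nppa UMI was present in 302 of 2032 WT nuclei, 843 of 1532 BMD nuclei and 575 of 1065 DMD nuclei. This split used all UMIs of a nucleus and not the draw, so it was not at equal depth. The median depth of cardiomyocyte-like nuclei was 2761.5 (WT), 3774 (BMD) and 3265 (DMD) UMIs. In nuclei with Nppa, Dmd was 17334 CPM (WT), 20895 CPM (BMD) and 19861 CPM (DMD). In nuclei without Nppa it was 16276, 19922 and 18849 CPM. The order of the libraries was the same on both sides, with BMD highest and WT lowest. Utrn was 991, 793 and 912 CPM with Nppa and 994, 806 and 915 CPM without, so the lower Utrn of BMD was present on both sides.

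Outside cardiomyocytes, Dmd was lower and Utrn had a different order of classes. Among the 9 classes with at least 50 nuclei in each library, the log2 levels of Dmd and Utrn over the 27 sums of class and library had a Pearson r of -0.279. These points share libraries and depth, and r is given as a description. The genes most like Dmd across the 27 sums, of 11331 genes with at least 200 UMIs, were Nexn with r of 0.99, Tpm1 with 0.99, Ldb3 with 0.99, Actn2 with 0.98 and Myom1 with 0.98. These encode the actin-binding nexilin, tropomyosin, a Z-disc protein, alpha-actinin and the M-band protein myomesin. Ldb3, Actn2 and Myom1 are among the markers that named the cardiomyocyte-like class, so their likeness to Dmd is not independent of that naming. The genes most like Utrn were Ccnjl with r of 0.91, Emid1 with 0.88, Apold1 with 0.88, Kalrn with 0.87 and Snrk with 0.85, of which Apold1 and Ccnjl had 326 and 601 UMIs in all. Kalrn encodes a guanine nucleotide exchange factor and Snrk a kinase. In WT, Kalrn had 1061 CPM in lymphatic-like, 1058 CPM in mural-like, 807 CPM in endothelial-like and 259 CPM in cardiomyocyte-like nuclei.

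Utrn was highest in the vessel classes. Lymphatic-like nuclei had 2720 CPM in the WT library (interval 2486 to 2971), 3266 CPM in the BMD library (3088 to 3453) and 2517 CPM in the DMD library (2345 to 2697). Mural-like nuclei, named for the pericytes and smooth muscle cells around vessels, had 2399 CPM in the WT library (2284 to 2518), 2072 CPM in the BMD library (1950 to 2198) and 2608 CPM in the DMD library (2480 to 2741). Endothelial-like nuclei had 2237 CPM in the WT library (2158 to 2318), 2360 CPM in the BMD library (2290 to 2432) and 2051 CPM in the DMD library (1989 to 2114). The 3 classes led the order in each library, though neighbours were not separated throughout. In WT the intervals of lymphatic-like and mural-like nuclei met, as did those of mural-like and endothelial-like nuclei. In DMD mural-like and lymphatic-like nuclei were not separated, and in BMD mural-like nuclei were not separated from Schwann-like nuclei.

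The other classes followed at lower Utrn levels. T or B cell-like nuclei had 1514, 1607 and 1594 CPM of Utrn in WT, BMD and DMD, and the Schwann-like nuclei of nerves, between 31 and 65 per library, had 1482, 1813 and 1539 CPM. Endocardial-like nuclei, from the inner lining of the heart, had 1142, 1222 and 1132 CPM. Fibroblast-like nuclei had 1086 CPM (WT), 934 CPM (BMD) and 911 CPM (DMD), with both mutant libraries below WT and not apart from each other. The larger cluster of this class was also below WT in both mutants, with 1127, 980 and 915 CPM. In the smaller cluster, led by Tnc, Utrn was above WT in both mutants, with 636, 840 and 896 CPM. The smaller cluster held 214, 467 and 391 nuclei in WT, BMD and DMD. Macrophage-like nuclei were among the lowest, with 650, 602 and 759 CPM. In mesothelial-like nuclei, of which there were 23, 6 and 1, Utrn had 18, 11 and 1 UMIs.

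Across classes, Utrn showed no common direction in the mutants. In BMD its log2 ratio over WT was -0.22 in fibroblast-like, -0.21 in mural-like, 0.08 in endothelial-like and 0.26 in lymphatic-like nuclei, each with an interval that left out 0. In DMD it was -0.25 in fibroblast-like, -0.13 in endothelial-like, 0.12 in mural-like and 0.23 in macrophage-like nuclei, again with intervals that left out 0. Clusters within a class differed. The larger fibroblast-like cluster was at -0.203 in BMD and -0.301 in DMD. The smaller was at 0.402 (interval 0.199 to 0.609) and 0.495 (0.286 to 0.708). In DMD the endothelial-like cluster led by Btnl9 was at -0.246, and that led by Unc5c at -0.0048 (-0.0993 to 0.09). Over all nuclei the ratio was -0.07 for BMD (interval -0.10 to -0.04) and 0.03 for DMD (0.0013 to 0.060). The BMD ratio over all nuclei turned to between 0.0138 and 0.043 with TMM scaling, with the mean over nuclei or after thinning to 500 UMIs, so no direction is read from it.

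**Figure D3:**
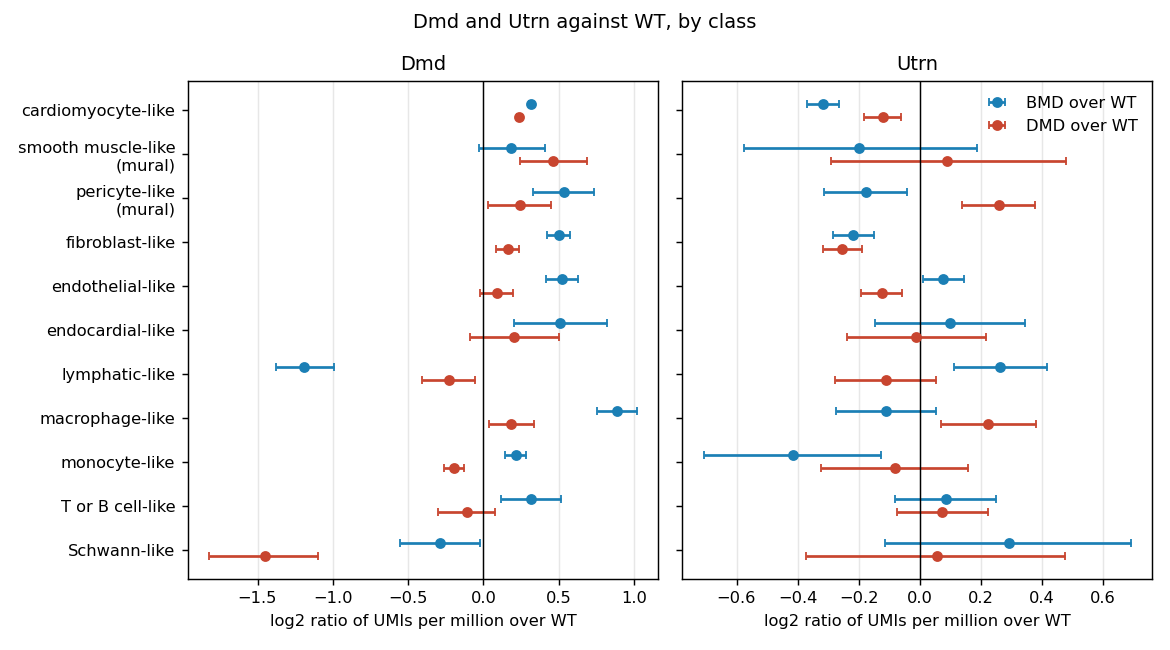
Log2 ratio of CPM over WT for Dmd (left) and Utrn (right) by class, with BMD in blue and DMD in red. Bars are exact 95% intervals for counting error with 1 library per genotype, and the axes of the panels differ. In cardiomyocyte-like nuclei Dmd lies above 0, at 0.32 and 0.24, and Utrn below 0, at -0.32 and -0.12.

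Within the mural-like nuclei, which were divided after the data were seen, Dmd was highest in the smooth muscle-like nuclei. A subcluster of 192 nuclei (40 in WT, 87 in BMD, 65 in DMD) that raised 7 smooth muscle markers and 5 cardiomyocyte markers over the other mural-like nuclei, with Myh11, Tagln and Acta2 among its leading genes, had 5197 CPM of Dmd in WT (interval 4555 to 5904), 5916 CPM for BMD (5467 to 6392) and 7169 CPM for DMD (6606 to 7767). The pericyte-like subcluster of 1240 nuclei had 901 CPM (815 to 992), 1305 CPM (1180 to 1439) and 1065 CPM (958 to 1180). Subclusters of 121 and 101 nuclei, which raised endothelial and fibroblast markers respectively, were 61.16% and 75.25% predicted doublets. They stayed in the mural-like class. The smooth muscle-like level lay above the pericyte-like level in each library, with intervals far apart. At 500 UMIs, Dmd was found in 75%, 72.4% and 84.6% of smooth muscle-like nuclei and in 37.2%, 50.5% and 44.7% of pericyte-like nuclei of WT, BMD and DMD, against 98.6%, 97.9% and 97.9% of cardiomyocyte-like nuclei. The median depth before drawing was 881, 1140 and 1098 UMIs in the first and 750, 949 and 854 UMIs in the second. Utrn did not follow this split, with 1916, 1668 and 2038 CPM in smooth muscle-like and 2638, 2334 and 3157 CPM in pericyte-like nuclei.

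Because free cardiomyocyte RNA enters droplets of other nuclei, Dmd outside cardiomyocytes was set against the amount that carry-over would bring. Within a library, 1 source keeps its genes in 1 ratio, so the expected Dmd count of a class is its cardiomyocyte marker UMIs times the ratio of Dmd to these markers in cardiomyocyte-like nuclei. In smooth muscle-like nuclei, observed Dmd was 2.35 times this expectation in WT (236 against 100 UMIs, interval 1.85 to 2.98), 3.11 times for BMD (642 against 206, 2.64 to 3.67) and 3.24 times for DMD (598 against 185, 2.74 to 3.84). Summed cardiomyocyte markers were 2092, 1668 and 2074 CPM in these nuclei, with all 9 detected. Schwann-like nuclei also stood above carry-over, at 1.88 times in the WT library (1.57 to 2.25), 1.79 times in the BMD library (1.39 to 2.31) and 2.34 times in the DMD library (1.56 to 3.53). Smooth muscle is known to express full-length dystrophin and Schwann cells a shorter form.

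In pericyte-like nuclei the ratio to carry-over was 1.34 in the WT library (interval 1.15 to 1.55), 0.913 in the BMD library (0.794 to 1.05) and 0.975 in the DMD library (0.842 to 1.13). For the whole mural-like class it was 1.62, 1.43 and 1.81. Fibroblast-like nuclei had 1.57, 1.17 and 1.03, endothelial-like nuclei 1.23, 0.96 and 0.789, and macrophage-like nuclei 0.995, 0.867 and 0.728. With this reference, Dmd of pericyte-like, endothelial-like and macrophage-like nuclei was not above carry-over in either mutant library. In WT the ratio lay above 1 in more classes than in BMD and DMD.

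**Figure D4:**
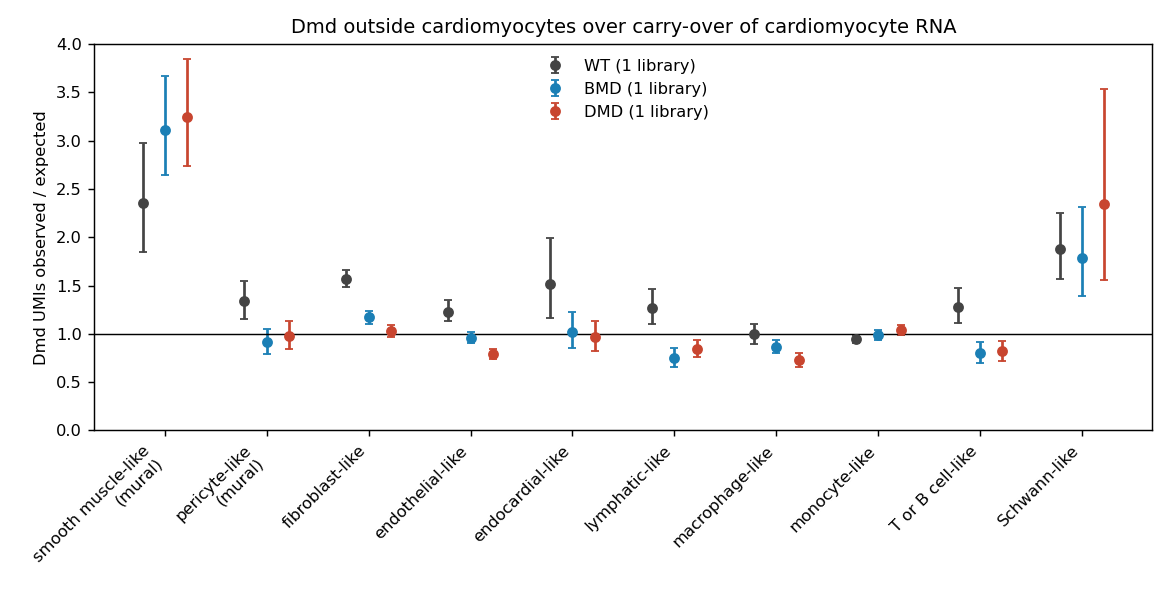
Observed Dmd UMIs divided by those expected from carry-over of cardiomyocyte RNA, by class and library, with cardiomyocyte-like nuclei as the reference. The line at 1 is carry-over alone and bars are 95% intervals for counting error. Smooth muscle-like nuclei lie at 2.35 to 3.24 and Schwann-like nuclei at 1.79 to 2.34, and macrophage-like nuclei at 0.728 to 0.995.

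The monocyte-like cluster, with 64 to 129 nuclei per library, held both cardiomyocyte and monocyte markers. Its leading genes were S100a9, S100a8, Camp, Il1b and Ngp, and 5 of the 7 monocyte markers in the files were raised. No neutrophil class was among the marker lists, so the name does not tell monocytes from neutrophils. Its Dmd level was 12652 CPM (WT), 14680 CPM (BMD) and 11035 CPM (DMD), next to the cardiomyocyte-like level. Its summed cardiomyocyte markers were 12666, 13042 and 9959 CPM, its monocyte markers 1928, 6077 and 18295 CPM, and 44.37% of it were predicted doublets. With cardiomyocyte-like nuclei as the reference, observed over expected Dmd was 0.945, 0.987 and 1.04. The high Dmd level of this cluster was thus matched by its cardiomyocyte markers with this reference. With so many predicted doublets, the match is no check of the expectation for free RNA.

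The choice of reference changes the amounts. Barcodes with at most 50 UMIs, which hold free RNA, had a Dmd level of 8796 CPM (WT), 7133 CPM (BMD) and 3884 CPM (DMD). With these as the reference, observed over expected Dmd in smooth muscle-like nuclei was 2.18, 7.49 and 9.14, and in macrophage-like nuclei it was 0.923, 2.09 and 2.05. It was 1.46, 2.81 and 2.9 in fibroblast-like, 1.41, 2.47 and 2.73 in endocardial-like and 1.24, 2.2 and 2.75 in pericyte-like nuclei. In endothelial-like nuclei it was 1.15, 2.31 and 2.22, in lymphatic-like nuclei 1.17, 1.8 and 2.39, and in T or B cell-like nuclei 1.18, 1.92 and 2.31. These classes, from fibroblast-like to T or B cell-like, lay above 1 in all 3 libraries with this reference. Monocyte-like nuclei had 0.878, 2.38 and 2.93, and so lay above 1 in BMD and DMD, as macrophage-like nuclei did. Smooth muscle-like nuclei were above macrophage-like nuclei of the same library with either reference.

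Outside cardiomyocytes, the direction of Dmd against WT varied by class, most of all for DMD. In mural-like nuclei the log2 ratio was 0.97 for BMD (interval 0.84 to 1.1) and 0.83 for DMD (0.70 to 0.97). Smooth muscle-like nuclei were a larger part of this class in BMD and DMD than in WT, as their numbers above show. Within them alone the ratio was 0.19 for BMD (-0.03 to 0.41) and 0.46 for DMD (0.24 to 0.69), and within pericyte-like nuclei 0.54 (0.33 to 0.74) and 0.24 (0.03 to 0.45). Summed cardiomyocyte markers in the pericyte-like nuclei were also higher in the mutant libraries, with 638 CPM (WT), 1252 CPM (BMD) and 1024 CPM (DMD). In fibroblast-like nuclei the Dmd ratio was 0.50 in BMD and 0.16 in DMD, in endothelial-like nuclei 0.52 and 0.09 (the latter with an interval of -0.02 to 0.20), and in macrophage-like nuclei 0.89 and 0.19. It was 0.21 and -0.20 in monocyte-like nuclei and 0.32 and -0.11 in T or B cell-like nuclei, the last with an interval of -0.30 to 0.08. Clusters of the T or B cell-like class differed. The larger, of 1000 nuclei, was at 0.366 (0.148 to 0.582) in BMD and -0.42 (-0.645 to -0.197) in DMD. The smaller, of 126 nuclei, was at -0.404 (-0.899 to 0.0952) and 0.152 (-0.272 to 0.59). No direction is read from the monocyte-like cluster, given its predicted doublets and mixed markers above. Against the cardiomyocyte markers, the direction in pericyte-like, fibroblast-like and endothelial-like nuclei depended on the reference for carry-over. With cardiomyocyte-like nuclei as the reference, observed over expected Dmd was lower in both mutant libraries than in WT, as given above. With barcodes of at most 50 UMIs as the reference, it was higher in both mutant libraries than in WT, as also given above. Summed free RNA was estimated at 4.23% to 10.1% of the UMIs of the fibroblast-like, endothelial-like and mural-like nuclei. How near the Dmd counts of these classes lay to carry-over also depended on the reference. With cardiomyocyte-like nuclei, observed over expected in BMD and DMD was 1.17 and 1.03 (fibroblast-like), 0.96 and 0.789 (endothelial-like) and 1.43 and 1.81 (mural-like). With barcodes of at most 50 UMIs it was 2.81 and 2.9, 2.31 and 2.22, and 3.44 and 5.11, in the same order. With free RNA subtracted, the log2 ratios over WT in BMD and DMD moved to higher values. They came to 1.53 and 1.24 in fibroblast-like, 2.66 and 2.23 in endothelial-like and 2.07 and 2.13 in mural-like nuclei.

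In Schwann-like nuclei Dmd was 4323 CPM in the WT library (interval 3886 to 4797, 65 nuclei), 3547 CPM in the BMD library (3051 to 4102, 34 nuclei) and 1579 CPM in the DMD library (1252 to 1965, 31 nuclei). The DMD library was lowest. Its summed cardiomyocyte markers in these nuclei were also lowest, with 631 CPM against 2174 in WT and 1735 in BMD, and 1 of the 9, Myom1, was at 0. Schwann markers had a summed level of 8829, 9063 and 7281 CPM with 8 of 9 detected and Kcna1 at 0 in all 3 libraries. In lymphatic-like nuclei Dmd was 2440, 1071 and 2080 CPM, whereas the share of nuclei with Dmd at 500 UMIs was 34%, 39.2% and 31.5%, so BMD was lowest by level and highest by share, and no difference between BMD and the other libraries is read.

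The other genes of the dystrophin complex were then examined in cardiomyocyte-like nuclei. Of 19 genes listed, 18 had a row and 15 had at least 50 UMIs over the 3 libraries. A gene was counted as changed when its CPM plus 5 differed by 1.5-fold or more from WT. By this measure 2 of 15 genes were higher and 1 was lower in BMD, against a background of 4.64% higher and 4.99% lower among the 10140 genes with as many UMIs. In DMD 2 were higher and none was lower, against 6.14% and 6.12%. The median log2 ratio of the 15 genes was -0.13 in BMD and 0.01 in DMD, beside -0.04 and -0.02 over all genes measured. Dmd itself lay above 86.6% of these genes in BMD and 79.1% in DMD, and Utrn above 17.6% and 37.9%. Neither gene reached 1.5-fold in either mutant library.

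Of the complex, the syntrophins Sntb1 and Sntb2, adaptors that bind the dystrophin end, were higher in both mutant libraries. Sntb1 was measured at 697, 1210 and 1063 CPM in WT, BMD and DMD, which gives log2 ratios of 0.79 and 0.61. Sntb2 was scarce, with 17.9 CPM, 29.6 CPM and 34.5 CPM. Lama2, a chain of laminin outside the cell, had 3495, 3657 and 3934 CPM with ratios of 0.07 and 0.17. Sgcd, the delta-sarcoglycan of the transmembrane part, had 2180, 1657 and 2034 CPM with ratios of -0.40 and -0.10. Dtna, the gene of alpha-dystrobrevin, had 658, 844 and 867 CPM with ratios of 0.36 and 0.39. The gene that was lower in BMD was Sgce, epsilon-sarcoglycan, with 36.2, 16.7 and 36.4 CPM, named here because it was alone in its direction.

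**Figure D5:**
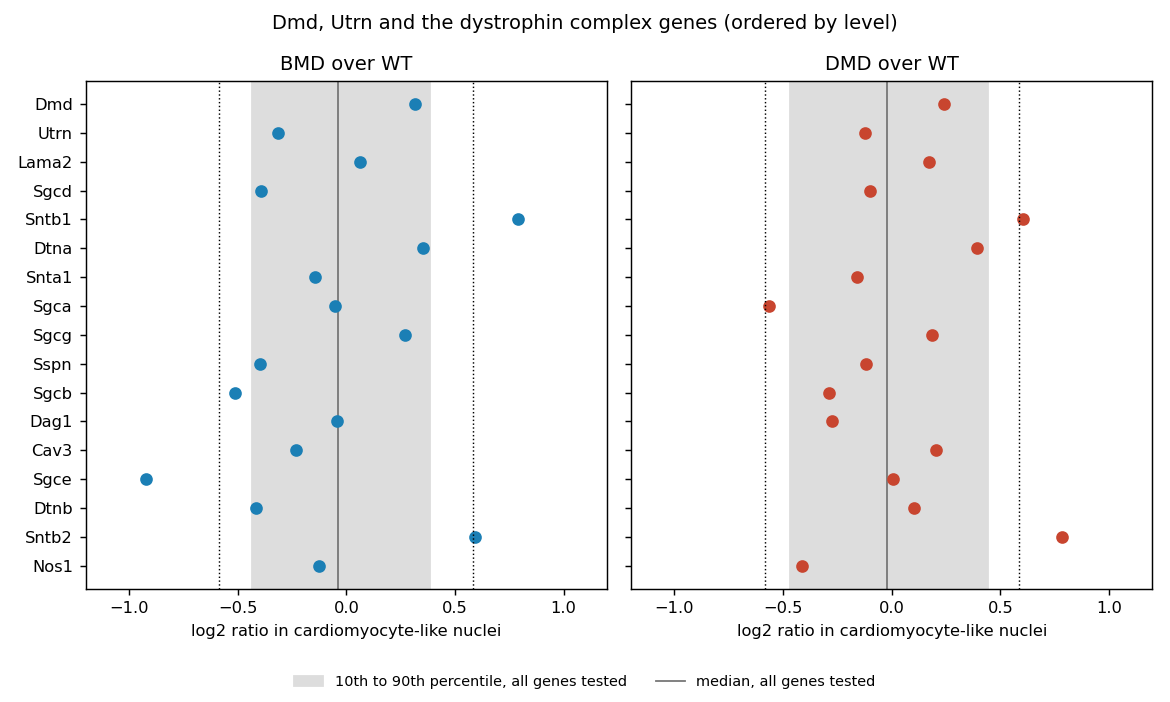
Log2 ratio over WT in cardiomyocyte-like nuclei for Dmd, Utrn and 15 dystrophin complex genes ordered by level, in BMD (left) and DMD (right). The gray band spans the 10th to 90th percentile of 10140 genes, the gray line is their median and dotted lines mark 1.5-fold. Sntb1 and Sntb2 lie beyond 1.5-fold in both panels, whereas Dmd and Utrn lie within the band.

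All 9 listed regulators of the Utrn promoter were measured, and 0 of 9 reached 1.5-fold in either direction in either mutant library, against a background of 4.64% higher and 4.99% lower in BMD and 6.14% and 6.12% in DMD. With 9 genes, a count of 0 is near this background. With 1 library per genotype no unadjusted p exists for this count. The median log2 ratio of the 9 was -0.08 in BMD and -0.01 in DMD. Ppargc1a, a coactivator of oxidative metabolism, was measured at 718, 554 and 614 CPM in WT, BMD and DMD, or -0.37 and -0.22 on the log2 scale over WT. Ppard, a nuclear receptor, had 145, 137 and 143 CPM. Sp3, which binds GC boxes, had 123, 137 and 155 CPM, and Gabpb1, a subunit of the ETS complex GABP, had 56.5, 49.8 and 65.2 CPM.

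Since Dmd is among the longest genes of the genome, 30 other very long genes were set beside it. Of these, 21 had a row and 13 had enough UMIs. The median log2 ratio of the 13 was 0.05 in BMD and -0.01 in DMD. In BMD 1 was higher and 2 were lower by 1.5-fold, and in DMD 4 were higher and 1 was lower, beside the same background of 4.64% and 4.99% in BMD and 6.14% and 6.12% in DMD. Pard3b had 2903, 3301 and 2526 CPM, Ptprd 1413, 1060 and 1401 CPM, Pde4d 799, 821 and 872 CPM, and Lsamp 725, 439 and 624 CPM. Rbms3, which encodes an RNA-binding protein, was higher in both mutants with 153, 842 and 511 CPM, and Nrxn3, a neurexin, was lower in both with 15, 2.99 and 4.9 CPM. Of the 13, 8 were higher and 5 lower than WT in BMD, and 5 were higher and 8 lower in DMD, and a part of gene length in the Dmd ratios was not tested.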

How the data were processed

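The 3 libraries, 1 per genotype, held sorted nuclei of the rat heart. Per the labels the libraries were 10x Genomics 3′ v3.1, whereas the text of the study also names a 5′ technology, and which end of Dmd transcripts was counted is therefore not settled. The authors deposited raw UMI counts per gene and barcode made with Cell Ranger. The processing notes name rn6, and the headers name version 6.0.1 for the WT file and 4 for BMD and DMD. Since the WT file is an aggregate, its header may give the version of the aggregation only. The version that counted WT is therefore not known, and an effect of the version cannot be told apart from genotype. Whether introns were counted is not given in the sources used here. The WT file was an aggregate of 3 libraries, from which the remaining barcode suffix was taken as WT after the others matched the BMD and DMD files. The aggregate held 76.09% of the UMIs of the BMD file and 92.86% of those of the DMD file, and the latter files were used. WT was not analysed from another file, and whether its counts were thinned is not known.

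Barcodes were ranked by UMIs and kept up to the number of nuclei the study states for each library. Clustering used scanpy 1.11.5 (2000 variable genes, 30 components, 15 neighbours, Leiden resolution 0.5) without Dmd, Utrn, mitochondrial or sex genes. A cluster took the class with the largest share of markers raised at least 2-fold (CPM plus 5), with 3 markers or more, and stayed unnamed if more than 50% were Scrublet doublets or over 5 of its 10 leading genes were mitochondrial. The share and doublet rules were set after the data were seen. Doublets, called in 5.095% to 10.444% of nuclei, otherwise stayed in. Sums per class and library were scaled to CPM. Intervals are exact Poisson for sums, exact Clopper-Pearson for shares, and exact given the summed counts for ratios. TMM factors came from edgeR 4.0.16. Functions were tested on simulated data. Named genes are Dmd and Utrn, of each list the 4 genes with most UMIs in cardiomyocyte-like nuclei and those past 1.5-fold in both mutants, and the 5 genes most like each member. Members, lists and markers were chosen with earlier results of these data known.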

Additional observations from a re-analysis of the deposited data

Results flagged for a closer look

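Classes in which the counting-error intervals of a genotype's log2 ratio over WT lay on opposite sides of 0 stood out, with 1 library per genotype. Only classes with at least 50 nuclei in every library were compared, which leaves out Schwann-like and mesothelial-like nuclei. In Schwann-like nuclei Dmd was at -0.285 in BMD and -1.45 in DMD. The differences between classes were not tested. For Dmd in BMD, the ratio was 0.317 in cardiomyocyte-like, 0.974 in mural-like, 0.5 in fibroblast-like, 0.523 in endothelial-like, 0.511 in endocardial-like, 0.886 in macrophage-like, 0.214 in monocyte-like and 0.317 in T or B cell-like nuclei, against -1.19 in lymphatic-like nuclei. The share of lymphatic-like nuclei with Dmd at 500 UMIs went the other way, with 39.2% in BMD and 34% in WT, so no direction is read from that class. For Dmd in DMD, it was 0.24 in cardiomyocyte-like, 0.832 in mural-like, 0.161 in fibroblast-like and 0.186 in macrophage-like nuclei, against -0.231 in lymphatic-like and -0.197 in monocyte-like nuclei. No direction is read from the monocyte-like cluster for either gene, here or below, given its predicted doublets and mixed markers.

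For Utrn in BMD, the ratio was 0.0774 in endothelial-like and 0.264 in lymphatic-like nuclei, against -0.316 in cardiomyocyte-like, -0.211 in mural-like, -0.218 in fibroblast-like and -0.415 in monocyte-like nuclei. For Utrn in DMD, it was 0.121 in mural-like and 0.225 in macrophage-like nuclei, against -0.121 in cardiomyocyte-like, -0.253 in fibroblast-like and -0.125 in endothelial-like nuclei. The clusters within the fibroblast-like and endothelial-like classes differed in Utrn, as given above.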

How the results depend on the processing

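The ratios of Dmd and Utrn over WT in all nuclei and in cardiomyocyte-like, endothelial-like, fibroblast-like and mural-like nuclei, the mural-like ratio to carry-over and the counts of 1.5-fold genes were recomputed with 1 choice changed, and the other results were not. In cardiomyocyte-like nuclei Dmd stayed above WT in each alternative run, from 0.279 to 0.361 on the log2 scale in BMD and from 0.191 to 0.27 in DMD, and Utrn stayed below WT, from -0.328 to -0.263 and from -0.131 to -0.0518. The scale per marker UMI was not among these runs. On it the Dmd ratio was 0.11 in BMD and 0.014 in DMD, the latter with an interval of -0.0056 to 0.033. Values are log2 ratios over WT, BMD then DMD, unless said otherwise, and the cause of a shift was not tested. With nuclei of at least 1000 UMIs, mural-like Dmd was 1.3 and 1.06, its ratio to carry-over 2.3, 1.61 and 2.36 in WT, BMD and DMD, and over all nuclei in BMD Dmd was 0.377 and Utrn -0.0223. Without predicted doublets Dmd over all nuclei was 0.487 and -0.0837 and the BMD mural-like ratio to carry-over 1.58, and without nuclei over 5% mitochondrial UMIs Dmd over all nuclei was -0.069 in DMD. With free RNA subtracted Dmd was 0.352 and 0.27 in cardiomyocyte-like, 2.66 and 2.23 in endothelial-like, 1.53 and 1.24 in fibroblast-like, 2.07 and 2.13 in mural-like and 0.499 and -0.093 in all nuclei. With TMM scaling Dmd was 0.361 and 0.27 in cardiomyocyte-like and 0.553 and -0.154 in all nuclei, and Utrn over all nuclei reversed to 0.0138 in BMD. As a mean over nuclei Dmd was 0.281 and 0.191 in cardiomyocyte-like, 0.826 and 0.57 in mural-like and 0.39 and -0.26 in all nuclei, and Utrn over all nuclei reversed to 0.018 in BMD. Thinned to 500 UMIs Dmd was 0.279 and 0.199 in cardiomyocyte-like, 0.824 and 0.638 in mural-like, 0.389 and -0.249 in all nuclei and 0.413 in BMD endothelial-like nuclei. After the same thinning Utrn was -0.0518 in DMD cardiomyocyte-like nuclei and reversed to 0.043 over all nuclei in BMD. With carry-over taken from barcodes of at most 50 UMIs the mural-like ratio was 3.44 in BMD and 5.11 in DMD. Among genes with at least 200 UMIs, 384 were higher by 1.5-fold in DMD, against 623. Chosen after seeing the data, smooth muscle-like nuclei alone gave Dmd ratios of 0.187 and 0.464 and ratios to carry-over of 2.35, 3.11 and 3.24, and pericyte-like nuclei alone gave 0.535 and 0.242, a Utrn ratio of 0.259 in DMD, and 1.34, 0.913 and 0.975. No paired analysis was possible because each genotype has 1 library, and no library could be left out. At 500 UMIs depth limits both genes, since the mean per WT nucleus was 0.482 UMIs for Utrn in cardiomyocyte-like nuclei and 0.325 UMIs for Dmd in fibroblast-like nuclei.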
